A study of Fragaria x ananassa with 21 samples.

Results

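The miR160 family in strawberry receptacle comprised 5 of the 1735 distinct small RNA sequences in the deposited miRNA table, together with the 13 unigenes predicted as their targets, of which 4 had degradome reads at the predicted cleavage site. The sequences were chosen by name (any name holding miR160) and the unigenes by the same names in the degradome table. The family was singled out with earlier results of these libraries in view, among them its low level after ABA, so the level of miR160 in the ABA libraries is given as a description. The fruits were of the octoploid cultivar Toyonoka (Fragaria x ananassa) and received a single injection of 100 μL into the receptacle core. The control (CK) fruits received water, the ABA fruits 1 μM abscisic acid, the hormone that promotes strawberry ripening, and the NDGA fruits 100 μM nordihydroguaiaretic acid, a blocker of ABA synthesis. Day 0 was 2 weeks after anthesis. Receptacles were collected on day 0 (CK0), day 5 (CK5, ABA5, NDGA5) and day 8 (CK8, ABA8, NDGA8), and each of the 7 conditions was assayed as transcriptome, small RNA and degradome. RNA was pooled within each condition, from 10 fruits by the sample labels and from replicate sets of 10 fruits by the methods text, and each assay had 1 library per condition. The spread between fruits was therefore not measured, no p-value was computed, and every interval printed is a 95% interval that covers counting error only. The intervals are exact except for ratios of site reads per RPKM, which have a log-normal interval.

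In plants, miR160 guides the slicing of messenger RNAs of auxin response factors. In Arabidopsis its targets are ARF10, ARF16 and ARF17, which hold back the transcription of auxin-responsive genes, and the miRNA limits their RNA. A sliced transcript leaves a fragment whose 5′ end lies opposite the middle of the miRNA, and the degradome assay sequences such ends. Auxin itself is produced by strawberry achenes, promotes growth of the receptacle and delays its ripening.

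The mature sequences are shown because the family divides into the arm that slices the targets and the rarely counted opposite arm of the same hairpin. They are printed as DNA letters from 5′ to 3′ with the seed (bases 2 to 8) in capitals, as the miRNA table gives them.
mdm-miR160a: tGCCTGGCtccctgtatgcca
mdm-miR160a_R+1: tGCCTGGCtccctgtatgccat
mdm-miR160a_L+2R-1: tGTGCCTGgctccctgtatgcc
gma-miR160a-3p_1ss6TC: gCGTACGAggagccaagcata
mdm-MIR160a-p3_1ss16AG: tTGTGGGTggcgtacgaggag

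The first 3 sequences come from the 5′ arm. The forms mdm-miR160a and mdm-miR160a_R+1 share the seed GCCTGGC, whereas mdm-miR160a_L+2R-1 begins 2 bases earlier in the hairpin, so that its seed is shifted to GTGCCTG. The other 2 sequences come from the 3′ arm and overlap each other, the gma-miR160a-3p form starting 9 bases after the p3 form. The degradome table lists the family under 4 names. Its mtr-miR160a has no base difference from mdm-miR160a, and the 3′ sequence it uses, ptc-miR160b-3p, differs from gma-miR160a-3p_1ss6TC at 2 positions (C6T and A16T, with the strawberry base first and positions counted from the 5′ end). Its mdm-miR160a_R+1 carries the substitution T22C relative to the form in the miRNA table.
mtr-miR160a: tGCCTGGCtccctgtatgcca
mdm-miR160a_R+1 of the degradome table: tGCCTGGCtccctgtatgccac
ptc-miR160b-3p: gCGTATGAggagccatgcata

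The hairpin that holds both abundant arms lies on the minus strand of linkage group LG3. It is printed with the mature 5′ arm and the p3 sequence in capitals, as deposited, to show where the arms sit.
LG3 hairpin of 86 bases: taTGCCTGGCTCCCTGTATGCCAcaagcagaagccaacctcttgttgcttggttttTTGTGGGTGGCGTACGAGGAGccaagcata

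The 5′ arm occupied bases 3 to 23 of this hairpin, the p3 sequence bases 57 to 77 and the 3p sequence bases 66 to 86. Its deposited GC content was 52.3% and its folding free energy -46.8 kcal per mol. The degradome form of mdm-miR160a_R+1 matched bases 3 to 24 of it exactly. The form in the miRNA table was instead assigned to a hairpin of 122 bases on LG4 (minus strand, 4750029 to 4750150), from which it differs at T15G (small RNA base first). The sequence mdm-miR160a_L+2R-1 was assigned to a hairpin of 188 bases on LG3 (8106061 to 8106248) and differs from it at G2A. The 86-base hairpin is a part of this longer one, beginning at its base 53, but the deposited position of the shorter hairpin (8106178 to 8106263) ends 67 bases away from where the longer one would place it (8106196). The LG3 positions are therefore uncertain to this extent, and no genome build is named for them in the sources used here.

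The small RNA level of the family was almost wholly that of 1 sequence. Over the 7 libraries mdm-miR160a had 1211 of 1316 miR160 reads (92.0%), gma-miR160a-3p_1ss6TC had 76, mdm-miR160a_R+1 had 19, mdm-miR160a_L+2R-1 had 9 and mdm-MIR160a-p3_1ss16AG had 1. Normalized reads are the deposited counts multiplied by 1 factor per library (0.738 to 1.43), and the miRNA table listed 236611 to 676780 reads per library, of which miR166 took 63.9% to 85.1% on the normalized scale.

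The mature 5′ arm was most abundant in the day 0 receptacle and least abundant after ABA. The normalized reads of mdm-miR160a were 350.0 in CK0 (interval 308 to 397), 220 in CK5 (195 to 248), 56.4 in ABA5 (41.3 to 75.3), 224 in NDGA5 (199 to 252), 179 in CK8 (157 to 203), 23.3 in ABA8 (13.8 to 36.9) and 90.0 in NDGA8 (74.0 to 109). Both ABA libraries thus lay below all others, CK0 lay above all others, and the range was 14.99-fold. In descending order the libraries were CK0, NDGA5, CK5, CK8, NDGA8, ABA5 and ABA8. NDGA5 and CK5 were not apart beyond counting error (ratio 1.02, interval 0.859 to 1.21), and CK5 and CK8 barely were (1.23, 1.03 to 1.46). Every other neighbouring pair in this order was apart, including NDGA8 and ABA5 (1.60, 1.12 to 2.30) and ABA5 and ABA8 (2.42, 1.37 to 4.43). This order and these ratios hold for the authors' factors. Scaled to the listed reads (CPM), the level was 1031 in CK0, 703 in CK8, 508 in CK5 and 409 in NDGA5. It was 211 in NDGA8, 186 in ABA5 and 66.8 in ABA8. CK0 stayed highest and the ABA libraries lowest, but CK8 lay above NDGA5 and CK5. NDGA8 and ABA5 lay closer together, and no interval was computed on this scale. Among 111 named miRNA families, miR160 ranked between 17 (CK0) and 36 (ABA5) by summed normalized reads.

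**Figure D1:**
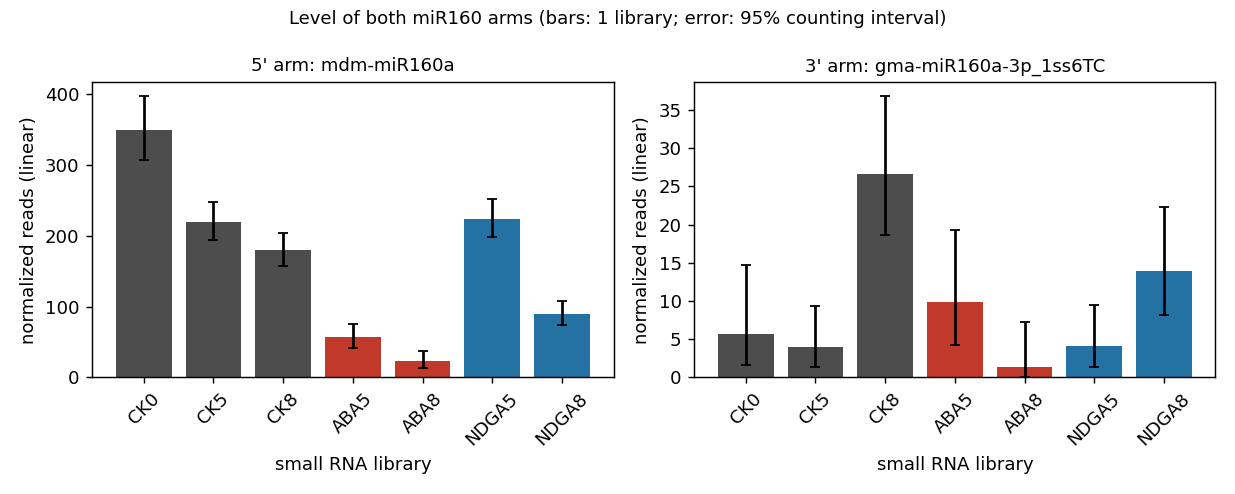
Normalized reads of the 5′ arm mdm-miR160a (left) and the 3′ arm gma-miR160a-3p_1ss6TC (right) in each small RNA library, with CK in grey, ABA in red and NDGA in blue. Bars are single libraries and error bars 95% counting intervals. The 5′ arm is lowest in ABA5 (56.4) and ABA8 (23.3), and the 3′ arm is highest in CK8 (26.6).

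Differences between 2 libraries were described by a size rule of at least 2-fold on normalized reads plus 1, with at least 10 normalized reads in 1 of the 2 libraries. During growth of the water-treated receptacle, mdm-miR160a was 1.59-fold lower in CK5 than in CK0 (1.33 to 1.90) and 1.95-fold lower in CK8 than in CK0 (1.63 to 2.34). Neither passed the 2-fold rule, and the second missed it narrowly. ABA was accompanied by the largest differences of this sequence, with ABA5 3.90-fold below CK5 (2.84 to 5.45) and ABA8 7.68-fold below CK8 (4.76 to 13.2), and both passed the rule. NDGA left it at 1.02 times CK5 on day 5 (0.859 to 1.21), while NDGA8 was 1.99-fold below CK8 (1.58 to 2.52), again just short of the rule, which the sum of the 5 sequences passed (2.02-fold, 1.63 to 2.51). The ABA and NDGA comparisons of a day share 1 water library, and CK5 and CK8 share CK0. By the paper, ABA fruits reached the initial red stage on day 5 and water fruits on day 8. ABA and water libraries of the same day thus differ in ripening stage as well as treatment, here and for sites and targets. The part of each was not tested. ABA5 (56.4) and CK8 (179), both at initial red, differ in day instead. Whether the NDGA ratios of the 2 days differ was not tested.

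Lower calls were common among small RNAs in the ABA comparisons, and the places that follow describe values already used to choose the family. In ABA5 against CK5, 15.1% of 232 sequences tested were called lower, and mdm-miR160a stood at place 9 from the lowest ratio (place 2 among 115 sequences of named families). In ABA8 against CK8, 31.2% of 205 sequences were called lower, and it stood at place 20 (place 7 of 103 in named families). The median log2 ratio over all sequences tested was 0.32 in ABA5 against CK5 and -0.06 in ABA8 against CK8, beside -1.94 and -2.89 for mdm-miR160a on the same scale. Rescaling to the reads listed in the table gave ratios of 0.365 for ABA5 over CK5 and 0.0950 for ABA8 over CK8, and rescaling by the median ratio of sequences gave 0.232 and 0.137. For the other ratios of mdm-miR160a, scaling to the listed reads gave 0.493 for CK5 over CK0, 0.682 for CK8 over CK0, 0.806 for NDGA5 over CK5 and 0.301 for NDGA8 over CK8.

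**Figure D2:**
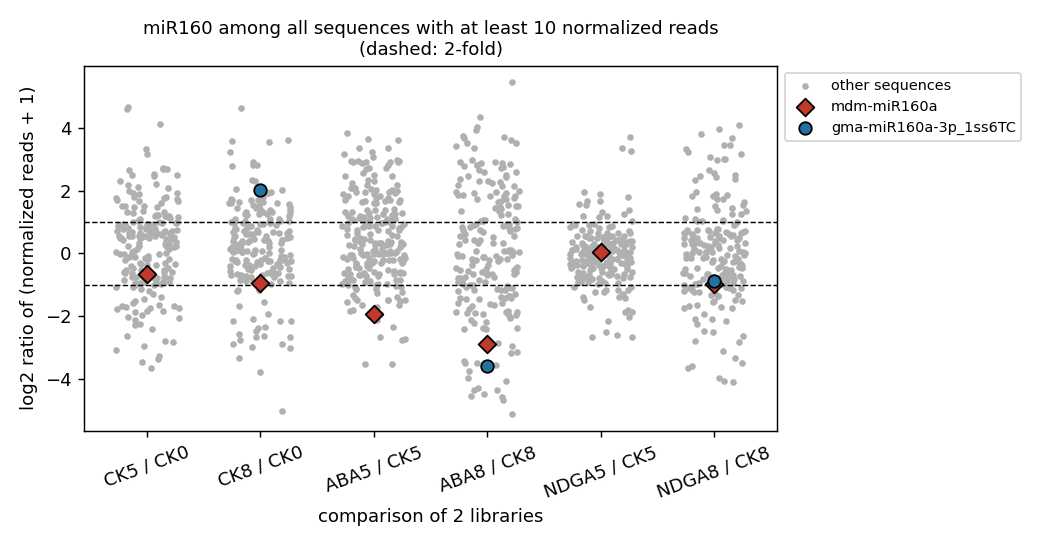
Log2 ratio of normalized reads plus 1 for every sequence with at least 10 normalized reads in 1 of the 2 libraries (grey points), by comparison, with both miR160 arms marked and the 2-fold rule as dashed lines. The 5′ arm sits at -1.94 in ABA5 against CK5 and -2.89 in ABA8 against CK8, and near 0 in NDGA5 against CK5.

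The 3′ arm had a different profile. The normalized reads of gma-miR160a-3p_1ss6TC were 5.74 in CK0 (4 reads), 4.03 in CK5 (5 reads), 9.81 in ABA5 (8 reads), 4.05 in NDGA5 (5 reads), 26.6 in CK8 (36 reads), 1.30 in ABA8 (1 read) and 13.9 in NDGA8 (17 reads). CK8 was the highest library and was apart from its neighbour NDGA8 (ratio 1.91, 1.04 to 3.62), whereas no other neighbouring pair was apart beyond counting error. In CK8 the 3′ arm stood at 4.63 times CK0 (1.66 to 17.9), a higher call beside 27.9% of 201 sequences called higher, whereas the 5′ arm stood at 0.512 times CK0 (0.427 to 0.614). In ABA8 it stood at 0.0488 times CK8 (0.0012 to 0.290), and this lower call rests on 1 read in ABA8.

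The share of the 3′ arm within the family also differed between libraries. It was 1.60% of 250 reads in CK0 (0.438% to 4.05%), 1.77% of 282 in CK5 (0.578% to 4.09%) and 1.71% of 293 in NDGA5 (0.556% to 3.94%). It was 12.5% of 287 reads in CK8 (8.94% to 16.9%), 14.5% of 55 in ABA5 (6.50% to 26.7%) and 13.3% of 128 in NDGA8 (7.93% to 20.4%). The first 3 libraries did not overlap with the latter 3, and ABA8 could not be placed, with 4.76% of 21 reads (0.120% to 23.8%). There were 61 reads of mdm-miR160a for each read of the 3p sequence in CK0 and 6.75 in CK8.

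The remaining forms were near the limit of detection. mdm-miR160a_R+1 stayed between 0.819 and 4.86 normalized reads, and mdm-miR160a_L+2R-1 had no reads in CK0, ABA5 and NDGA8 and at most 4.05 in NDGA5. mdm-MIR160a-p3_1ss16AG had its single read in CK0. A library without reads allows a level of up to 2.21 (CK8) to 4.30 (CK0) normalized reads, so differences in these 3 forms were not detectable at this depth.

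Other miRNA families that act on auxin signalling are given beside miR160. miR167, which targets activating auxin response factors in Arabidopsis, had a summed level of 1215 normalized reads in CK0, 809 in CK5, 683 in ABA5, 741 in NDGA5, 1563 in CK8, 826 in ABA8 and 1374 in NDGA8. As normalized by the authors, ABA5 stood 1.18-fold below CK5 (1.07 to 1.31) and ABA8 1.89-fold below CK8 (1.73 to 2.07), neither past the rule. Summed miR160, whose low level after ABA was known when it was chosen, stood 3.37-fold (2.51 to 4.58) and 7.77-fold (4.99 to 12.8) below. The miR167 comparison depended on the scale. Scaled to the listed reads (CPM), summed miR167 was higher in ABA5 (2247) than in CK5 (1868). On that scale it was more than 2-fold lower in ABA8 (2360) than in CK8 (6128). miR393, which targets auxin receptor messenger RNAs, was higher after ABA, with 117 normalized reads in CK5 and 205 in ABA5 (1.75 times, 1.40 to 2.21, short of the rule), and 87.0 in CK8 and 272 in ABA8 (3.13 times, 2.49 to 3.95, past it). miR390, which triggers the small RNAs that act on a further group of auxin response factors, had 3.22 normalized reads in CK5 and 12.3 in ABA5, its highest level, a higher call from few reads (3.81 times, 1.10 to 16.6). Higher calls were common among single sequences, at 34.5% of 232 in ABA5 against CK5 and 33.2% of 205 in ABA8 against CK8. Scaled to the listed reads, summed miR393 was more than 2-fold higher in ABA5 (674) than in CK5 (270). It was also more than 2-fold higher in ABA8 (779) than in CK8 (341) on that scale.

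The sequences whose profile was most like that of summed miR160 were sought among 117 sequences reaching 50 normalized reads in any library, by Pearson correlation of log2 levels over the 7 libraries, as a description only. They were mdm-miR858 (r = 0.96), mtr-miR5213-5p_2ss2AG5TA (0.91), mdm-miR396b (0.91), PC-3p-14985_285 (0.91) and PC-3p-387_6421 (0.90). mdm-miR858, whose family targets MYB transcription factors in Arabidopsis, had 330.0 normalized reads in CK0, 77.3 in ABA5 and 67.4 in ABA8. mdm-miR396b, of a family that targets growth-regulating factors, had 3739 in CK0, 1518 in ABA5 and 1510 in ABA8. The points of each correlation share libraries and scaling factors.

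On the target side, the degradome table held 20 lines for miR160 names among 5207, covering 13 of its 3917 unigenes. Reads at a predicted site were listed for 4 of the 13 (30.8%), beside 17.2% of all unigenes in the table (675). The 4 unigenes come from 3 Trinity components, since comp117557_c0_seq5 and comp117557_c0_seq21 are forms of 1 assembled locus with the site at the same base. Unigenes are identified here by assembly name, as neither they nor their genome positions are annotated by gene name in the files, and their nucleotide sequences were not used here.

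The sites of comp117557 and comp100456 are the best-paired of those with reads. mtr-miR160a paired with bases 1432 to 1452 of both comp117557 forms (4094 and 4018 bases long) with an alignment penalty of 0.5, where 0 is a perfect match, and reads began at base 1443. It paired with bases 2115 to 2135 of comp100456_c1_seq1 (3078 bases) with a penalty of 1, and reads began at base 2126. Both positions lie opposite base 10 of the miRNA, the place where plant miRNAs slice. Only 31 of the 733 sites with reads in the table (4.23%) had a penalty of at most 1. The longer form mdm-miR160a_R+1 had penalties of 1.5 and 2 at the same positions and rests on the same reads. The GO terms of both loci are the same 6, namely nucleus, DNA binding, protein dimerization activity, auxin mediated signaling pathway, and transcription and its regulation.

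The reads at the comp117557 site were 461 in CK0, 47 in CK5, 113 in ABA5, 75 in NDGA5, 69 in CK8, 41 in ABA8 and 61 in NDGA8. The degradome libraries differed in depth, from 13787038 reads (NDGA8) to 40989117 (CK0), so the reads were scaled to 1000000000 reads of the library (TPB). Counted once for both forms, the TPB was 11247 in CK0 (10243 to 12322), 2562 in CK5 (1882 to 3407), 3021 in ABA5 (2490 to 3633), 3903 in NDGA5 (3070 to 4893), 2974 in CK8 (2314 to 3764), 1787 in ABA8 (1282 to 2424) and 4424 in NDGA8 (3384 to 5683). CK0 stood far above the other 6 libraries and ABA8 was the lowest. The site was of category 0 in all 7 libraries, which in the usual scheme marks the position with the most reads of its transcript.

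The comp100456 site had fewer reads and a similar profile. It had 186 reads in CK0, 18 in CK5, 40 in ABA5, 33 in NDGA5, 25 in CK8, 8 in ABA8 and 36 in NDGA8, again of category 0 throughout. The TPB was 4538 (3909 to 5239), 981 (582 to 1551), 1070 (764 to 1456), 1717 (1182 to 2412), 1078 (697 to 1591), 349 (151 to 687) and 2611 (1829 to 3615) in the same order. CK0 was highest and ABA8 lowest here as well.

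**Figure D3:**
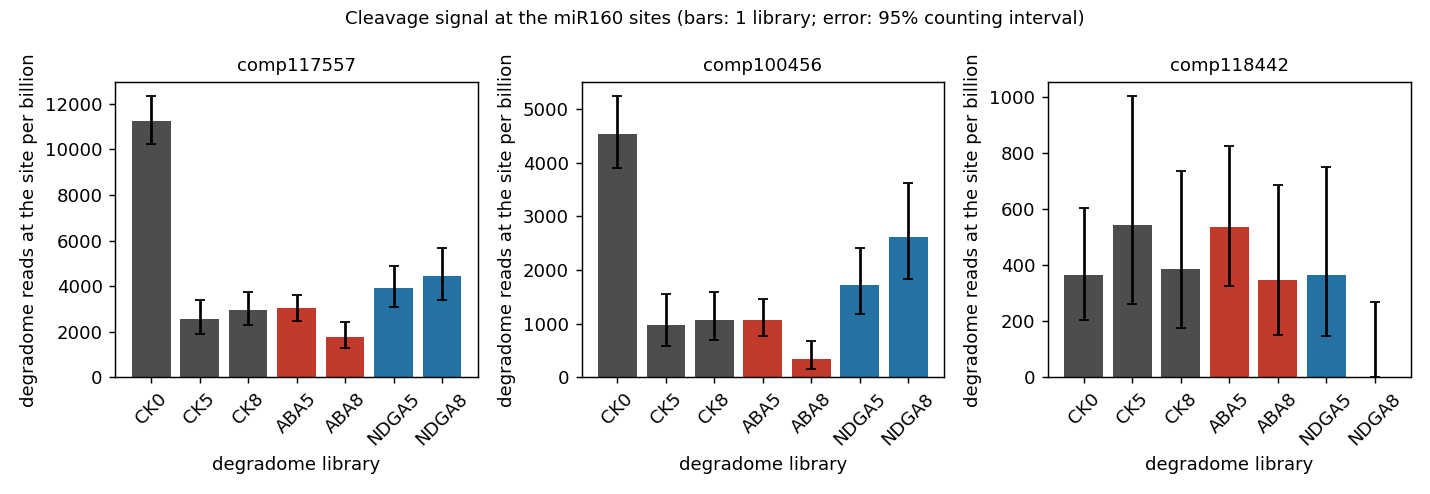
Degradome reads beginning at the miR160 sites of comp117557, comp100456 and comp118442 in TPB, with CK in grey, ABA in red and NDGA in blue. Bars are single libraries and error bars 95% counting intervals. The first 2 sites peak in CK0 at 11247 and 4538, and the third has no clear maximum.

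In the water-treated receptacle the cleavage signal of both loci was lower already on day 5. The comp117557 site was 4.39-fold lower in CK5 than in CK0 (3.25 to 6.06) and 3.78-fold lower in CK8 (2.93 to 4.94), and the comp100456 site was 4.62-fold (2.85 to 7.98) and 4.21-fold (2.76 to 6.67) lower. The median over all sites with at least 10 reads in 1 of the 2 libraries was 1.42-fold lower in CK5 (76 sites) and 1.77-fold lower in CK8 (80 sites), on TPB plus 10. Relative to these medians the comp117557 site stood at 0.323 times CK0 in CK5 and 0.468 times in CK8. The comp100456 site stood at 0.306 and 0.420 times on that scale, so both sites remained below CK0 by smaller amounts. After NDGA all 4 ratios to water were above 1, and 3 of them beyond counting error. The comp117557 site stood at 1.52 times CK5 in NDGA5 (1.04 to 2.24) and 1.49 times CK8 in NDGA8 (1.04 to 2.13), and the comp100456 site at 1.75 (0.957 to 3.30) and 2.42 times (1.41 to 4.21). The medians of all sites were 0.905 and 0.919 times, over 54 and 49 sites.

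The ABA comparison depended on the scale. The comp117557 site stood at 1.18 times CK5 in ABA5 (0.832 to 1.69) and lay 1.66-fold below CK8 in ABA8 (1.12 to 2.51). The comp100456 site stood at 1.09 times (0.611 to 2.02) and lay 3.09-fold below (1.35 to 7.93). In ABA8 the median of 54 sites was itself 2.22-fold below CK8, and relative to that median the comp117557 site stood at 1.33 times, above CK8, and the comp100456 site at 0.718 times, still below it. The miR160 sites took 7.05% of the reads listed at all sites in CK0 (6.54% to 7.59%), 1.76% in CK5 (1.39% to 2.20%), 2.28% in CK8 (1.86% to 2.75%), 4.31% in ABA5 (3.70% to 4.99%), 4.85% in ABA8 (3.70% to 6.24%), 2.88% in NDGA5 (2.38% to 3.45%) and 5.50% in NDGA8 (4.48% to 6.67%). By share, both ABA libraries were thus above their water libraries, whereas in TPB ABA8 was below. The total TPB of all sites was 232516 in CK5, 107269 in ABA5, 195122 in CK8 and 51184 in ABA8. Within it, the miR393 site of comp112242_c0_seq9, a unigene with an auxin GO term, had a TPB of 50368 in CK5, 16631 in ABA5, 47892 in CK8 and 5535 in ABA8.

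The RNA of both loci, like the miRNA, was highest in CK0 and lowest in ABA8. RPKM, reads scaled by unigene length and library size, was 15.6 in CK0, 7.08 in CK5, 7.03 in ABA5, 8.19 in NDGA5, 8.39 in CK8, 4.93 in ABA8 and 8.62 in NDGA8 for comp117557_c0_seq21. The form comp117557_c0_seq5 had 14.3, 6.38, 6.34, 7.48, 7.62, 4.47 and 8.02 in the same order, and how reads were divided between the 2 forms is uncertain. The 2 forms had like profiles. The RNA of comp100456_c1_seq1 was scarcer, with 2.41 RPKM in CK0, 1.85 in CK5, 0.919 in ABA5, 2.04 in NDGA5, 1.43 in CK8, 0.117 in ABA8 and 1.80 in NDGA8. Of the targets tested it had the lowest ratios after ABA, with ABA5 2.01-fold below CK5 (1.67 to 2.43) and ABA8 12.3-fold below CK8 (8.52 to 18.3). In these bulk receptacle samples, fewer cells that express a gene and less RNA per cell cannot be told apart.

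For unigenes the size rule was at least 1.5-fold on RPKM plus 0.1, with at least 1 RPKM in 1 of the 2 libraries. Both comp117557 forms were called lower in CK5 and CK8 against CK0 and in ABA8 against CK8 (1.70-fold for each form), but stood at 0.993 times CK5 in ABA5. After rescaling by the median ratio of unigenes, in which the ABA8 factor was the lowest (0.843), the ABA8 calls of the 2 forms were lost, with ratios of 0.700 and 0.699. comp100456_c1_seq1 was called lower in CK8 against CK0 (1.68-fold, lost after rescaling at a ratio of 0.670), in ABA5 against CK5 and in ABA8 against CK8. None of the 3 unigenes was called in an NDGA comparison, where their ratios to water lay between 1.03 and 1.26.

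At comp117557 the miRNA, its site and its target stood at unequal distances below CK0 in the ABA libraries. Relative to CK0, mdm-miR160a stood at 16.1% in ABA5 and 6.67% in ABA8, the comp117557 site at 26.9% and 15.9%, and the RPKM of comp117557_c0_seq5 at 44.2% and 31.2%. The TPB at the comp117557 site per RPKM of that form was 785 in CK0, 402 in CK5, 477 in ABA5, 522 in NDGA5, 390 in CK8, 400 in ABA8 and 552 in NDGA8. CK0 was the highest, and CK5 and CK8 stood at 0.511 (0.377 to 0.694) and 0.497 times CK0 (0.384 to 0.644). These quotients rest on TPB, in which the median site was itself 1.42-fold lower in CK5 and 1.77-fold lower in CK8 than in CK0. They were not rescaled to that median, so how far they fall below CK0 depends on the scale. ABA against water gave ratios of 1.19 on day 5 (0.839 to 1.68) and 1.02 on day 8 (0.692 to 1.51), and NDGA against water 1.30 (0.897 to 1.88) and 1.41 (0.996 to 2.01). A lower signal per RPKM after ABA was thus not detectable at this locus and depth, in conditions where mdm-miR160a was 3.90-fold and 7.68-fold lower.

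For comp100456 the same quotient was 1885 in CK0, 530 in CK5, 1164 in ABA5, 842 in NDGA5, 752 in CK8, 2990 in ABA8 and 1447 in NDGA8. It was higher after ABA than in water on both days, by 2.19 times (1.22 to 3.94) and 3.97 times (1.66 to 9.54), the second resting on 8 degradome reads and 0.117 RPKM. After NDGA it stood at 1.59 times (0.880 to 2.86) and 1.92 times (1.13 to 3.28). The assays are separate libraries and the quotient joins 2 scales, so its size has meaning between conditions only.

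**Figure D4:**
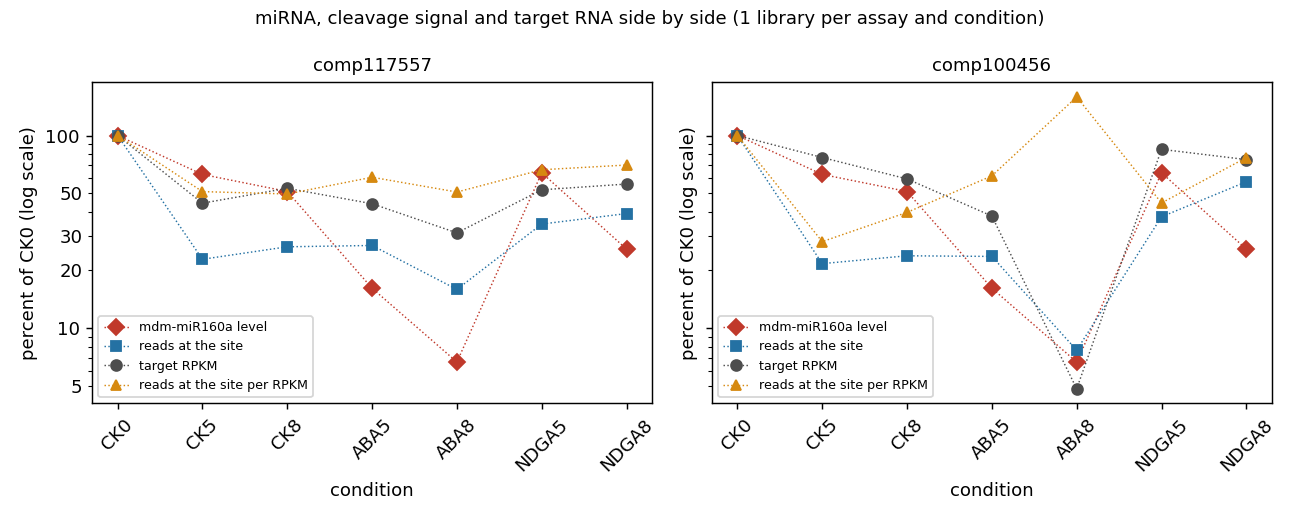
Level of mdm-miR160a, TPB at the site, RPKM of the target and TPB per RPKM, each as a percent of CK0 on a log axis, for comp117557 (left) and comp100456 (right). Points are single libraries joined only to guide the eye. In ABA8 the miRNA stands at 6.67% of CK0, while the TPB per RPKM of comp117557 stands at 50.9%.

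The remaining site with reads belongs to the opposite arm and to a unigene with other annotation. mdm-MIR160a-p3_1ss16AG paired with bases 965 to 985 of comp118442_c0_seq1 (3579 bases) with a penalty of 3.5, and reads began at base 976. Its GO terms include apoplast, plant-type cell wall, serine-type endopeptidase activity and mucilage metabolism in the seed coat. The site had 15 reads in CK0, 10 in CK5, 20 in ABA5, 7 in NDGA5, 9 in CK8, 8 in ABA8 and 0 in NDGA8, where a TPB of up to 218 is allowed. The other libraries had a TPB of 349 to 545 with overlapping intervals, and all were of category 2, which in the usual scheme means that another position of the transcript had more reads. The unigene is abundant, with 220 RPKM in CK0, 323 in CK5, 320.4 in ABA5, 288 in NDGA5, 125 in CK8, 262 in ABA8 and 202 in NDGA8. The TPB per RPKM was 1.27 to 3.10 where the site had reads, and this quotient is not compared between loci. The small RNA behind the site was counted with 1 read in all 7 libraries. The RNA was called lower in CK8 against CK0 (1.76-fold) and higher in ABA8 against CK8 (2.10 times) and in NDGA8 against CK8 (1.61 times, lost after rescaling at 1.44), 3 comparisons that share CK8. In CK5 it stood at 1.47 times CK0, a higher call only after rescaling (1.62).

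**Figure D5:**
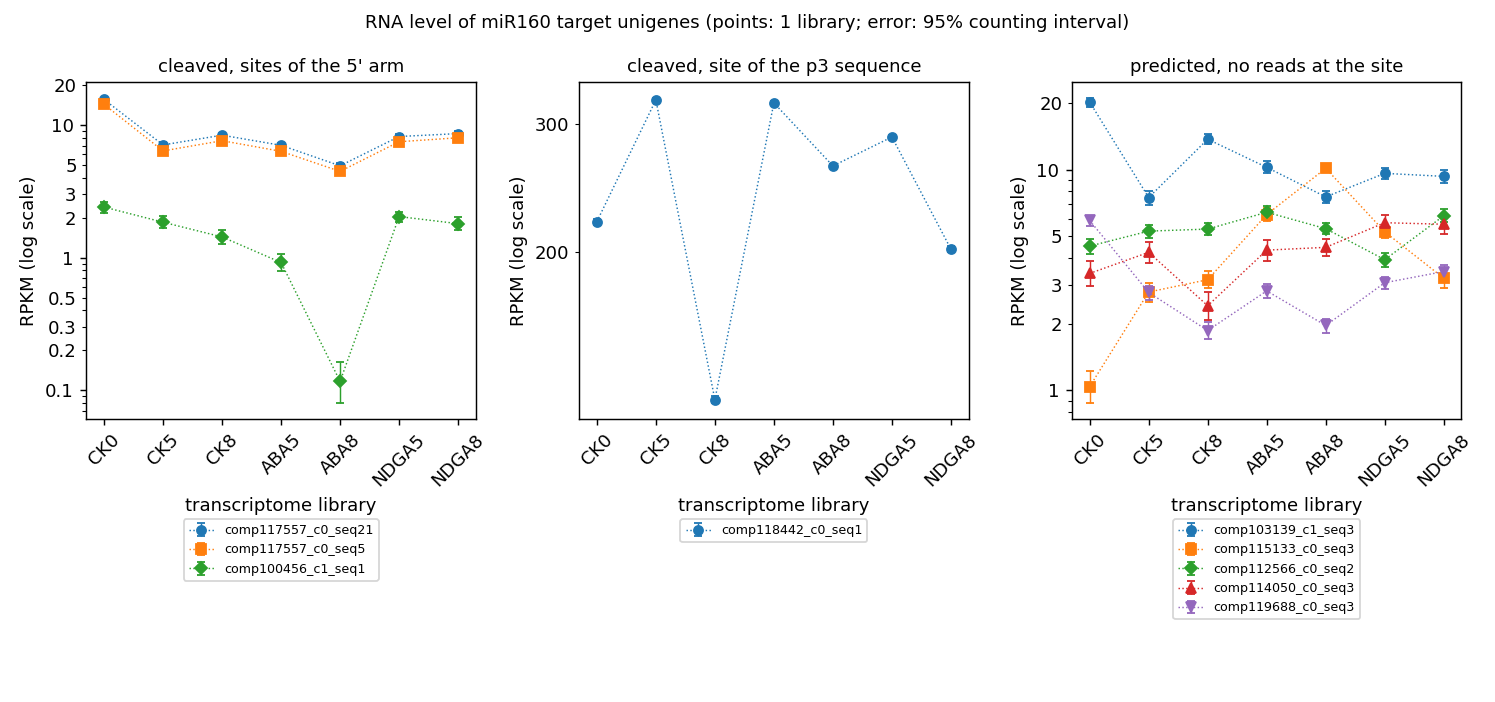
RPKM on a log axis of the target unigenes cleaved at sites of the 5′ arm (left), the one with a site of the p3 sequence (middle) and 5 of the predicted targets without reads at a site (right). Points are single libraries, error bars 95% counting intervals, and dotted lines only guide the eye. comp100456_c1_seq1 lies at 0.117 RPKM in ABA8, whereas comp115133_c0_seq3 reaches 10.1 RPKM there.

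The 9 unigenes predicted as targets but without reads at a site were aligned with penalties of 0 to 4. Among them, comp91399_c0_seq2 has alignments with both arms, spaced much as the arms of the hairpin are. comp112566_c0_seq2 has alignments only with the overlapping sequences of the 3′ arm, spaced as these are in the hairpin. Whether these unigenes are targets or come from a miR160 hairpin was not tested. Of the 9, 6 reached 1 RPKM in a library. comp115133_c0_seq3, aligned with the 3p sequence, was lowest in CK0 and highest in ABA8, with 1.04 RPKM in CK0, 2.79 in CK5, 6.26 in ABA5, 5.23 in NDGA5, 3.17 in CK8, 10.1 in ABA8 and 3.22 in NDGA8. It was called higher in 5 comparisons and not in NDGA8 against CK8 (1.02 times, 0.888 to 1.16). comp103139_c1_seq3 had 20.3 RPKM in CK0, 7.48 in CK5, 10.3 in ABA5, 9.63 in NDGA5, 13.7 in CK8, 7.53 in ABA8 and 9.33 in NDGA8, and was called lower in CK5 against CK0 (2.71-fold) and in ABA8 against CK8 (1.83-fold). Its ratio of NDGA8 to CK8 (0.679) was a lower call only after rescaling (0.609). comp119688_c0_seq3 was highest in CK0 at 5.89 RPKM and lay between 1.87 and 3.46 elsewhere, with lower calls in CK5 and CK8 and a higher call in NDGA8 against CK8.

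Of these 6, comp112566_c0_seq2 varied least, from 3.91 RPKM in NDGA5 to 6.42 in ABA5, with no call. comp114050_c0_seq3 ranged from 2.42 in CK8 to 5.75 in NDGA5 and was called higher in ABA8 and NDGA8 against CK8. comp53189_c0_seq1 passed the minimum in NDGA5 alone (1.36 RPKM, 27 reads, called higher against 0 reads in CK5), was blank in ABA8 and NDGA8 and had at most 4 reads in the other libraries. The 3 unigenes below 1 RPKM throughout were comp91399_c0_seq2, comp125931_c0_seq1 and comp24747_c0_seq1, with highest values of 0.893, 0.425 and 0.663.

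Counted over all 13 target unigenes, 1 was called higher and 4 lower in CK5 against CK0, where 17.1% of 50956 unigenes were called higher and 30.0% lower. In CK8 against CK0 the counts were 1 and 5, beside 20.2% and 30.1% of 52881. In ABA5 against CK5 they were 1 and 1, beside 15.1% and 13.0% of 47461, and in ABA8 against CK8 they were 3 and 4, beside 18.7% and 36.1% of 50764. For NDGA they were 2 higher in NDGA5 against CK5 (14.8% of 47946) and 3 higher in NDGA8 against CK8 (20.7% of 51302), with none lower. In each comparison 9 or 10 of the 13 reached the minimum, 2 of them forms of 1 locus, and nothing about the targets as a group is read from these counts.

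The wider auxin pathway could be followed only in part, because gene descriptions accompany the degradome table and not the expression table. Of the auxin lists, carriers matched 2 unigenes, and auxin response factors, Aux/IAA repressors, GH3, SAUR, receptors, auxin synthesis and the miRNA machinery matched 0. The lists of achene storage genes and of chlorophyll a-b binding proteins also matched 0, so the receptacle label could not be checked against markers. The carriers were comp115138_c0_seq1, with 12.4 RPKM in CK0, 8.41 in CK5, 5.28 in ABA5, 7.98 in NDGA5, 8.68 in CK8, 3.18 in ABA8 and 9.42 in NDGA8, and comp105006_c0_seq1, with 2.66 RPKM in CK0 and 0.599 to 2.16 elsewhere. The first was highest in CK0 and lowest in ABA8.

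An auxin term appeared in the GO annotation of 18 unigenes, 3 of them the cleaved miR160 targets, and this grouping was made after the annotation had been seen. The 15 others come from 12 components, so that some are forms of 1 locus. All 15 are predicted small RNA targets, since only the degradome table gives GO terms. The shares set beside them are of all unigenes tested. Of these 15, 1 was called higher and 8 lower in CK5 against CK0, and as many in CK8 against CK0, beside 30.0% and 30.1% of all unigenes called lower, with median log2 ratios of -0.60 and -0.66 beside -0.16 and -0.15 over all unigenes tested. In ABA5 against CK5, 1 of 14 tested was called higher and 1 lower, beside 15.1% and 13.0% of all unigenes. In ABA8 against CK8, 5 of 13 were called higher and 5 lower, beside 18.7% and 36.1%. After NDGA, 1 of 15 tested on day 5 and 1 of 13 on day 8 were called higher, beside 14.8% and 20.7%, and 0 lower. The 2 best expressed were comp117822_c0_seq6, which carries a miR167 site (penalty 4, 5 to 18 reads per library) and ranged from 30.0 RPKM in CK8 to 51.9 in ABA5, and comp106330_c0_seq17, a predicted miR172 target with 17.7 RPKM in CK0 and 60.3 in ABA8.

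Annotation was available only for 1595 unigenes of the degradome table, which lists predicted small RNA targets. The annotated unigenes whose RNA profile was most like that of comp117557_c0_seq21 were sought in the same way among 831 with a mean of at least 5 RPKM. The first 3 were forms of 1 component, comp106597_c1_seq15 (r = 0.99), comp106597_c1_seq13 (0.99) and comp106597_c1_seq11 (0.99), classed under lipid transport and metabolism, followed by comp117679_c0_seq11 (0.98; carbohydrate transport and metabolism) and comp115036_c0_seq7 (0.98; zinc ion binding). comp106597_c1_seq15 had 18.6 RPKM in CK0 and 0.992 in ABA8. The libraries are shared between the points and CK0 lies far from the rest.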

How the data were processed

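Strawberry receptacles were assayed in 7 conditions as transcriptome, small RNA and degradome libraries, 1 pooled library each. The deposited design text gives other labels for ABA8 and NDGA5, and the sample labels were followed. The authors built unigenes from quality-filtered reads by Trinity and TGICL assembly and deposited RPKM per unigene. RPKM times length gave whole reads in 100% of values (within 0.02 reads or 2e-05 of the count), from 53653395 to 89152239 reads per library, and counting intervals use these reads. The miRNA table holds, as deposited by the authors, an estimated count per sequence (multi-mapped reads are split, so some are not whole) and a normalized score, the count times 1 factor per library. Repeated lines of a sequence were used once. For 12 sequences, none of miR160, the repeated lines differ and the first was kept. At each degradome site the authors deposited a read count and a normalized score (TPB, scaled to 1000000000 reads of the library), which splits reads among transcripts, so comp117557 was counted once with all its reads. No mapping tool, version or genome build is named in the sources used here, and the authors' p-value columns were not used. No column of other samples was found (0).

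Ratios have Clopper-Pearson intervals, and quotients of site reads per RPKM a log-normal interval from 4 counts. Reads are not independent molecules, so intervals may be too narrow. Members, lists, size rules and the naming rule were chosen with earlier results of these data known. All miR160 sequences with at least 10 normalized reads, targets with at least 5 site reads or 1 RPKM, the 2 best expressed unigenes of each auxin list and the 5 most alike features were named. Procedures were tested on simulated data. Alternatives were other folds, minimums, pseudocounts and scalings, and counting by component. Python 3.11.15, numpy 2.4.6, pandas 2.3.3, scipy 1.17.1 and matplotlib 3.10.9 were used.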

Additional observations from a re-analysis of the deposited data

Results flagged for a closer look

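Some target unigenes lay above water on one day and below it on the other, beyond counting error. comp103139_c1_seq3 stood at 1.37 times water in ABA5 and 0.548 times in ABA8, and at 1.29 times in NDGA5 and 0.679 times in NDGA8. comp118442_c0_seq1 stood at 0.889 times water in NDGA5 and 1.61 times in NDGA8. comp112566_c0_seq2 stood at 0.742 times water in NDGA5 and 1.15 times in NDGA8. The difference between the days was not tested, since each day has 1 library per treatment, and the NDGA and ABA ratios of comp103139_c1_seq3 share the water libraries.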

How the results depend on the processing

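Of 82 alternative values, 55 stayed within 1.5 times the count as reported or, for a ratio, within its counting interval, 25 moved beyond and 2 reversed. The 55 include values that could not move. Summing miR160 site reads with 1 site per component gives the reported ratios by construction, since TPB already splits the reads of comp117557 between its forms. The count of 27 site detections also stayed, as each detection had category 0 or 2 and at least 7 reads. The intervals are wide for sites with few reads, so the comp100456 site in ABA8 over CK8 is among the 55 although relative to the median site it went from 0.324 to 0.718. The 4 calls of miR160 sequences over the 6 comparisons became 8 at 1.5-fold, 2 with a minimum of 50 normalized reads, 15 with no minimum and 11 in CPM of the listed reads with the same minimum, while all sequences went from 542 calls to 827, 215, 3410 and 1825. In CPM, summed miR160 stood at 0.497 (CK5 over CK0), 0.786 (CK8 over CK0), 0.423 (ABA5 over CK5), 0.825 (NDGA5 over CK5) and 0.296 (NDGA8 over CK8), against 0.633, 0.590, 0.297, 1.04 and 0.495 as normalized by the authors. Summed reads at miR160 sites went from 0.559 to 2.13 in ABA8 over CK8, a reversal, from 1.13 to 2.45 in ABA5 over CK5 and from 1.58 to 2.42 in NDGA8 over CK8 when taken relative to the reads at all sites. The comp117557 site in ABA8 over CK8 reversed from 0.601 to 1.33 relative to the median site, an alternative added after seeing the data. On the same scale that site moved from 0.228 to 0.323 in CK5 over CK0 and from 0.264 to 0.468 in CK8 over CK0. The comp100456 site moved from 0.237 to 0.420 in CK8 over CK0. The 25 target calls became 41 with no minimum and 13 at 2-fold, and all unigenes went from 122997 calls to 345469 with no minimum, 38977 at 5 RPKM, 70630 at 2-fold and 53699 per component. The 4 calls of the auxin carriers became 2 at 5 RPKM. The cause of these shifts was not tested. With 1 library a condition, no leave-one-out was possible, and the p3 form and the site of comp118442 are limited by depth.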

Other observations

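A pair of predicted targets aligned with more than 1 sequence of the hairpin, a feature that was noticed after the alignments had been seen. comp91399_c0_seq2 (1260 bases) aligned with mtr-miR160a at bases 804 to 824 and with ptc-miR160b-3p at bases 742 to 762, both with a penalty of 0, so that the arms spanned 83 bases, beside 84 bases from the first base of the 5′ arm to the last of the 3′ arm in the LG3 hairpin. No degradome reads were listed at these positions. Its RPKM was 0.893 in CK0, 0.0385 in CK5, 0.392 in ABA5, 0.201 in NDGA5, 0 in CK8, 0.356 in ABA8 and 0.118 in NDGA8. comp112566_c0_seq2 (2542 bases) aligned with mdm-MIR160a-p3_1ss16AG at bases 2513 to 2533 (penalty 0) and with ptc-miR160b-3p at bases 2504 to 2524 (penalty 2), a shift of 9 bases, within the last bases of the unigene. The p3 and 3p sequences also start 9 bases apart in the hairpin. Whether these unigenes come from a miR160 hairpin rather than hold target sites was not tested. Both are counted among the 13 predicted targets.

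A shorter form of the most cleaved locus, comp117557_c0_seq8 (372 bases), is not listed as a target. It had 5.96 RPKM in CK0, 1.48 in CK5, 1.72 in ABA5, 1.5 in NDGA5, 3.09 in CK8, 1.30 in ABA8 and 2.05 in NDGA8, again highest in CK0 and lowest in ABA8.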
